A study of Bos taurus with 8 samples.

Results

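The 10 genes described here encode the 5 subunits of the transcription factor NF-kB (NFKB1, NFKB2, REL, RELA and RELB) and 5 proteins grouped as its inhibitors (NFKBIA, NFKBIZ, NFKBIE, TNFAIP3 and BCL3). They were found by gene name, as 10 of the 21861 genes listed in each scRNA-seq table, and by the same Ensembl identifiers in all 4 scATAC-seq tables. Whole blood of 4 lactating female Holstein cows, 2 years old, was pooled and divided into 4 parts, so animals cannot be separated. No LPS was added to the first part. The others were exposed in vitro to 2 µg/ml LPS (lipopolysaccharide of the outer membrane of Gram-negative bacteria) for 2, 4 or 8 h, and mononuclear cells were then isolated. Every part yielded 1 library of each assay. No incubation time is given for the blood without LPS, so effects of LPS, of time in culture and of the library cannot be told apart.

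In resting cells NF-kB dimers are held in the cytoplasm by inhibitor proteins of the IkB family. LPS, bound by CD14 and TLR4 on monocytes, activates a kinase that marks the inhibitors for destruction, and the freed dimers enter the nucleus. Several of the genes they then switch on encode NF-kB inhibitors and subunits themselves, so the pathway is known for feedback. NFKBIA and NFKBIE encode classical inhibitors that hold dimers outside the nucleus. TNFAIP3 encodes a ubiquitin-editing enzyme that limits the signal upstream of the kinase. NFKBIZ and BCL3 encode IkB proteins of the nucleus, which can also activate target genes, so "inhibitor" is only a group name for them. RELA, REL and RELB carry activation domains, and RELB pairs mainly with the NFKB2 product. The products of NFKB1 and NFKB2 are made as long precursors that also act as inhibitors.

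Series of 4 values below run in the order no LPS, 2 h, 4 h and 8 h. The scRNA-seq libraries held 7821, 9865, 7387 and 3411 cells after filtering, with 16657841 to 47875879 UMIs (unique molecular identifiers, which count tagged RNA molecules), and pairs of them shared 8 to 24 barcodes. Cells were classed by UMIs of CD14 (monocytes), CD3E (T cells), MS4A1 (B cells) or NCR1 (NK cells) with none of the other 3 markers. The CD14 class held 707, 308, 117 and 66 cells, the CD3E class 3482, 4937, 3857 and 1550, the MS4A1 class 1692, 2392, 1894 and 663, and the NCR1 class only 58, 97, 90 and 38. The summed level of 7 further monocyte markers was 5956 to 9079 CPM in the CD14 class. It was 134 to 252 CPM in the CD3E and MS4A1 classes, but 1390 to 1519 CPM in the NCR1 class, where 4 of the 7 were detected. Of these markers, CSF1R, VCAN and CD68 had at most 15.2 CPM each in the NCR1 class of any library. Nearly all of the sum there thus came from the other markers of the list. Further T cell markers summed to 585 to 671 CPM in the CD3E class, 5.60 to 51.6 CPM in the CD14 and MS4A1 classes and 328 to 406 CPM in the NCR1 class. Further B cell markers had 991 to 1271 CPM in the MS4A1 class and 110 to 146 CPM in the CD3E class, and further NK cell markers 1843 to 2414 CPM in the NCR1 class and 107 to 198 CPM in the CD3E class. Every class thus had UMIs of genes on the marker lists of others. Whether these came from genes that the classes share or from RNA of other cells was not tested. Of 5 neutrophil markers 4 were detected in the CD14 class of every library, with a summed level of 86.1, 56.9, 178 and 44.0 CPM.

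Levels are given as CPM, the UMIs of a gene per 1000000 UMIs of the same cells. Differences are log2((CPM + 1)/(CPM + 1)), and a gene is called higher or lower at a 1.5-fold difference. With 1 library per treatment no test was possible, and the 95% intervals cover counting error only. Over all cells, fewer cells of a class and less RNA per cell cannot be told apart.

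Over all cells, the level of NFKBIA was 913, 1681, 1084 and 769 CPM. TNFAIP3 had 99.1, 283, 150 and 114 CPM, and NFKBIZ 41.1, 113, 77.0 and 61.8 CPM. All 10 genes had their highest level at 2 h, and for 9 of them (not RELA) the 2 h interval lay apart from the intervals of the other 3 libraries. At 2 h 9 of the 10 genes were called higher, against 3.18% of the 12150 genes with enough UMIs to be compared. The median log2 ratio of the 10 genes was 0.96, and that of all genes was -0.03. At 4 h 6 of the 10 were called higher, against 4.72% of all genes, and the median was 0.59. At 8 h NFKB2 alone was called higher (log2 ratio 0.62), against 4.86% of all genes, and with TMM or DESeq2 scaling no member was. The median at 8 h was 0.19, beside 0.10 for all genes. None of the 10 was called lower against no LPS at 2, 4 or 8 h, where 6.29%, 9.05% and 6.65% of all genes were.

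**Figure D1:**
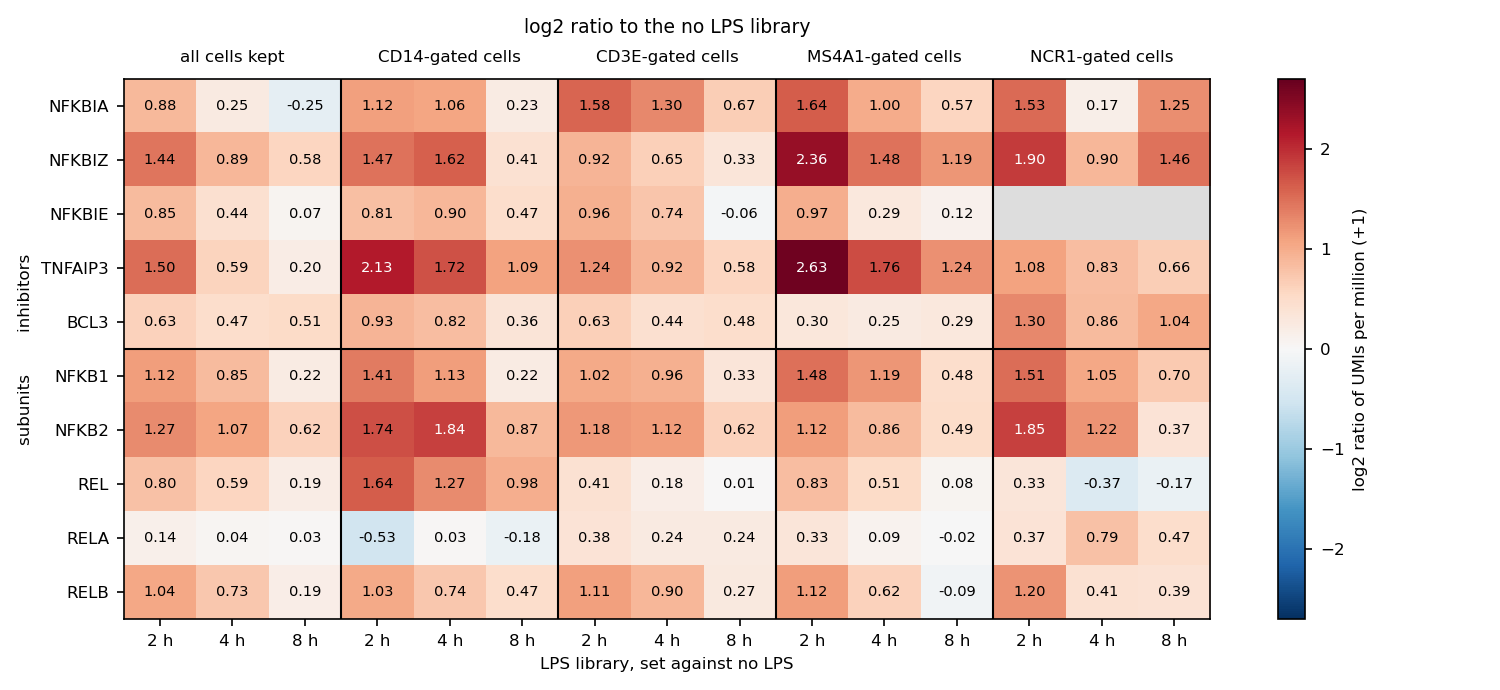
Log2 ratio of each gene to the no LPS library for all cells kept and for the 4 cell classes (columns by hours of LPS, colour from blue for lower to red for higher); the grey fields for NFKBIE in NCR1-gated cells had under 20 UMIs. The largest values stand at 2 h in the MS4A1 class, 2.63 for TNFAIP3 and 2.36 for NFKBIZ, and RELA lies closest to 0 over all cells.

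Among the inhibitors, NFKBIA had the highest level over all cells, and the monocyte class led. Its CD14 class level was 2724, 5909, 5667 and 3198 CPM. The CD3E class had 266, 795, 655 and 425 CPM, and the MS4A1 class 320, 1002, 641 and 477 CPM. The monocyte class was thus the highest in every library, whereas the relative difference in CPM at 2 h was larger in T and B cells. It was 2.17-fold in the CD14 class (log2 ratio 1.12, 95% interval 1.09 to 1.15), 2.98-fold in the CD3E class (1.58, 1.53 to 1.63) and 3.12-fold in the MS4A1 class (1.64, 1.58 to 1.70). This order depended on the scaling, since with TMM factors the log2 ratios were 1.60, 1.60 and 1.76, and with DESeq2 factors 1.70 in monocytes was above 1.60 in T cells and below 1.77 in B cells. At 4 h the log2 ratio was 1.06 in the CD14 class, 1.30 in the CD3E class and 1.00 in the MS4A1 class.

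TNFAIP3 showed the largest relative difference of the 10 genes at 2 h in both the CD14 and the MS4A1 class. Monocytes had 290, 1272, 957 and 619 CPM. B cells started from 22.9 CPM, where only NFKBIE was lower, and then had 147, 80.3 and 55.5 CPM. These are 4.38-fold (log2 ratio 2.13, interval 2.05 to 2.21) and 6.2-fold (2.63, 2.42 to 2.85) differences at 2 h. By log2 ratio TNFAIP3 was in place 67 of 7769 genes in the CD14 class and in place 23 of 9871 in the MS4A1 class. T cells had 37.0, 88.5, 70.8 and 55.7 CPM, a 2.36-fold difference at 2 h. NK cells were already high without LPS. The NCR1 class had 305, 645, 543 and 483 CPM, and its level without LPS differed from that of the CD14 class by less than the counting error (log2 ratio 0.08, interval -0.25 to 0.38).

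NFKBIZ was at low levels without LPS in every class. B cells had 26.0, 138, 74.1 and 60.6 CPM, and monocytes 66.1, 185, 205 and 88.0 CPM. B cells had their own highest level at 2 h, below that of monocytes, with a 5.14-fold difference (log2 ratio 2.36, interval 2.16 to 2.57), in place 31 of 9871 genes. The monocyte levels at 2 and 4 h differed by less than the counting error, with a log2 ratio of 0.15 (interval -0.07 to 0.37). T cells had 33.0, 63.5, 52.4 and 41.7 CPM, a difference of 1.89-fold at 2 h.

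NFKBIE was the rarest member, with 2339 UMIs in all cells of the 4 libraries, and its level was higher in B cells and monocytes than in T cells. The MS4A1 class had 21.0, 42.2, 26.0 and 22.9 CPM, the CD14 class 15.6, 28.0, 30.0 and 22 CPM, and the CD3E class 3.68, 8.08, 6.82 and 3.49 CPM. At 2 h the differences were 1.96-fold, 1.75-fold and 1.94-fold. NK cells had 0, 2, 4 and 0 UMIs, at or near the 3 UMIs that a count of 0 still allows, so no fold is given. BCL3 differed less from no LPS at 2 h than the other inhibitors over all cells and in T and B cells. It had 67.3, 68.0 and 66.0 CPM in the CD14, CD3E and MS4A1 classes without LPS and 129, 106 and 81.4 CPM at 2 h. In B cells this was a 1.23-fold difference (log2 ratio 0.30, interval 0.15 to 0.45) and was not called, and the later levels were 78.4 and 81.2 CPM.

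**Figure D2:**
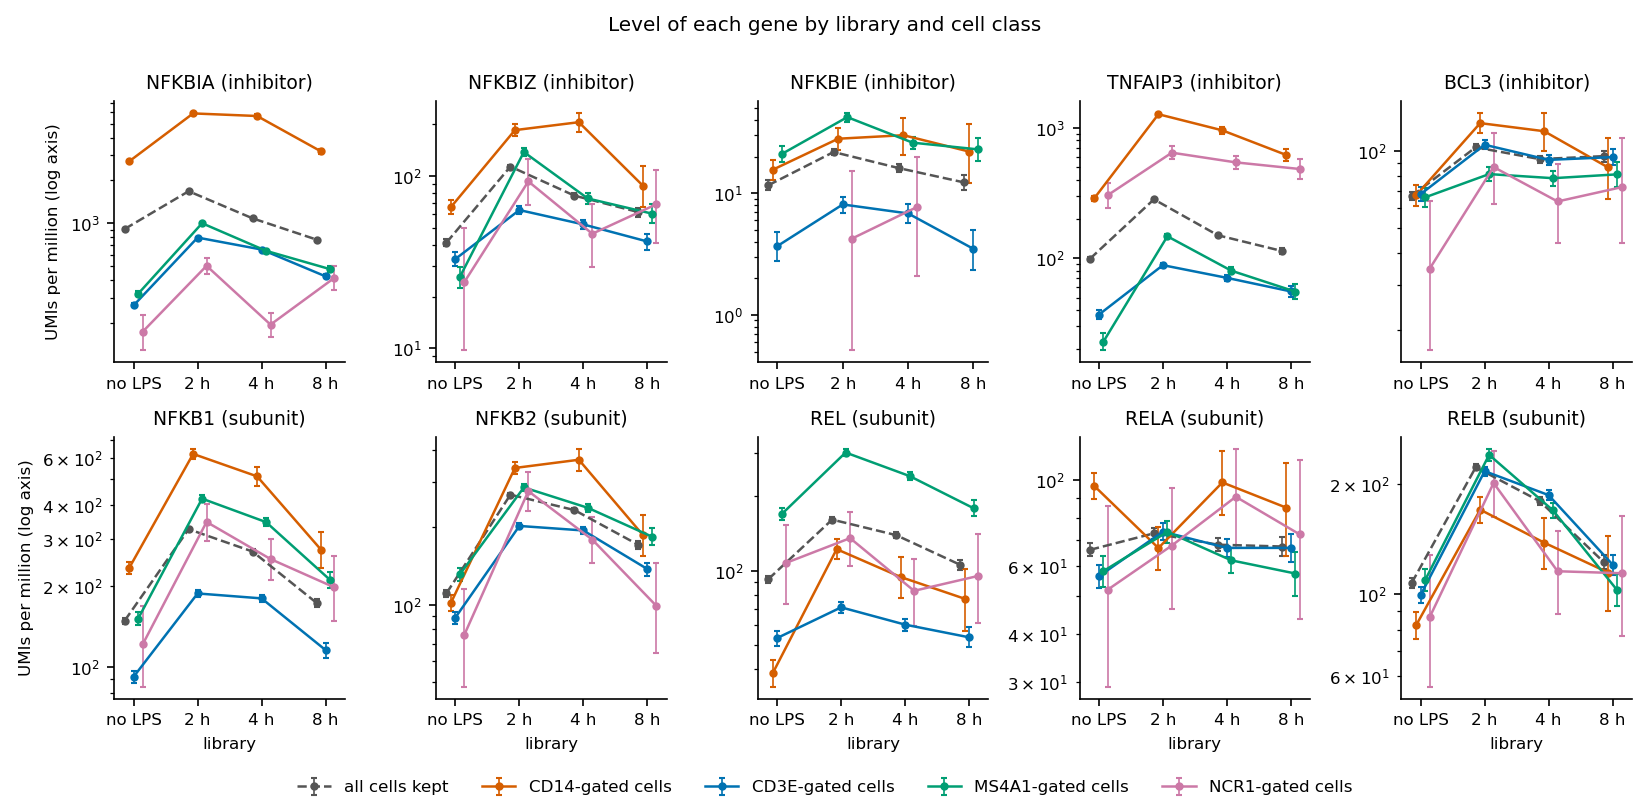
Level of each gene (CPM, log axis) in the 4 libraries for all cells kept (dashed) and the 4 cell classes; bars are exact 95% Poisson intervals, and points with 0 UMIs (NFKBIE in NCR1-gated cells without LPS and at 8 h) cannot be drawn. In the CD3E and MS4A1 classes all 10 genes are highest at 2 h, whereas in the CD14 class NFKBIZ, NFKBIE, NFKB2 and RELA are highest at 4 h, with intervals that are not apart from those of every other library.

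Among the subunits, the precursor genes NFKB1 and NFKB2 were called higher at 2 and 4 h in every class. NFKB1 had 234, 621, 513 and 273 CPM in monocytes. B cells had 152, 424, 346 and 211 CPM, and T cells 92.1, 188, 180 and 116 CPM. The 2 h levels were thus 2.65-fold, 2.78-fold and 2.03-fold those without LPS. NFKB2 in monocytes was at 102, 341, 367 and 187 CPM, so that its highest level came at 4 h with a log2 ratio of 1.84 (interval 1.67 to 2.02). T cells had 89.0, 203, 195 and 138 CPM of NFKB2, and B cells 131, 286, 239 and 184 CPM. NFKB2 was still called higher at 8 h in monocytes (1.83-fold) and T cells (1.54-fold), where NFKB1 had 1.17-fold and 1.25-fold differences.

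REL encodes the subunit c-Rel, known for its role in lymphocytes. B cells had 169, 301, 241 and 179 CPM, the highest of the 4 classes in every library. Monocytes had the lowest level of the classes without LPS, 38.5 CPM, and then 122, 94.3 and 77.0 CPM. At 2 h this was a 3.12-fold difference in monocytes (log2 ratio 1.64, interval 1.42 to 1.86), 1.77-fold in B cells and, from 53.4 to 71.1 CPM, 1.32-fold in T cells. In T cells at 8 h the log2 ratio of REL to no LPS was 0.01 (interval -0.16 to 0.17).

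RELB had similar values across classes, with 99.7, 216, 186 and 121 CPM in T cells, 109, 240, 169 and 103 CPM in B cells and 82.6, 170, 138 and 115 CPM in monocytes. Its 2 h differences of 2.16-fold, 2.18-fold and 2.05-fold had overlapping intervals. With TMM factors the log2 ratio was higher in monocytes (1.51) than in T cells (1.14) and B cells (1.24), as with DESeq2 factors (1.61, 1.13 and 1.25). In B cells at 8 h RELB differed from no LPS by less than the counting error (log2 ratio -0.09, interval -0.26 to 0.08). RELA differed least over all cells, with 66.0, 72.8, 68.0 and 67.3 CPM. T cells had 56.3, 73.5, 66.7 and 66.7 CPM, and B cells 58.1, 73.4, 62.0 and 57.3 CPM. None of these differences reached 1.5-fold. In monocytes RELA was at 96.5, 66.7, 98.7 and 84.9 CPM. The 2 h value had a log2 ratio of -0.53 (interval -0.74 to -0.31), but the median of all 7769 genes in that comparison was -0.56. Scaled by TMM factors the RELA ratio was -0.05, and by DESeq2 size factors it was 0.05.

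That shift of all genes touches the whole CD14 comparison at 2 h. In the CD14 class 9 of the 10 genes were called higher at 2 h, against 7.38% of all genes, and 9 at 4 h, against 12.3%. At 8 h the number was 3 (TNFAIP3, NFKB2 and REL), against 14.6%. None was called lower, where 47.7%, 27.3% and 18.7% of all genes were. The median of the 10 genes in this class was 1.26 at 2 h and 1.09 at 4 h. With scaling that moves the all-gene median closer to 0, the 2 h median of the 10 genes was 1.74 (TMM) or 1.84 (DESeq2).

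Neutrophil markers in the CD14 class did not all go the same way. The receptors CSF3R (7.87, 29.7, 85.5 and 20.4 CPM), CXCR1 (3.86, 16, 73.1 and 6.29 CPM) and CXCR2 (0.297, 8.13, 10.6 and 6.29 CPM) were highest at 4 h, whereas MMP9 (74.1, 3.08, 8.81 and 11 CPM) was highest without LPS. Without the cells that had a UMI of CSF3R, CXCR2 or CXCR1, 8 genes were called higher at 2 h and 7 at 4 h, with medians of 1.03 and 0.86. With CSF1R in place of CD14 as the marker, 9 and 6 genes were called higher, with medians of 0.98 and 0.63, and RELA was called lower at 2 h (log2 ratio -0.60). The members not called at 4 h with CSF1R, besides RELA, were NFKBIA, BCL3 (0.12) and RELB (0.44). The 4 h log2 ratio of NFKBIA was 0.74 and 0.58 in these settings, in place of 1.06, and that of TNFAIP3 was 1.7 and 1.45, in place of 1.72. The part of neutrophils in the values was not tested beyond this.

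In T cells 8 of the 10 genes were called higher at 2 h against 1.91% of all genes, 7 at 4 h against 3.38%, and 2 (NFKBIA and NFKB2) at 8 h against 4.13%. None was called lower, where 2.56%, 4.03% and 2.38% of all genes were. In B cells 8 were called higher at 2 h against 7.03%, 6 at 4 h against 7.9%, and 2 (NFKBIZ and TNFAIP3) at 8 h against 7.37%. None was called lower there either, against 12.9%, 16.3% and 7.49%. The median at 2 h was 0.99 in T cells and 1.12 in B cells. In B cells the inhibitors had a median of 1.64 and the subunits 1.12, whereas in T cells the corresponding values were 0.96 and 1.02. The members with the largest log2 ratios were TNFAIP3 and NFKBIZ in B cells and NFKBIA and TNFAIP3 in T cells. In NK cells 9 members had enough UMIs. Of these, 7 were called higher at 2 h (15% of all genes), 6 at 4 h (15%) and 5 at 8 h (13.5%), and none lower (10.6%, 11.7% and 13.4%). Some of these calls rest on few UMIs. NFKBIZ and BCL3, called at 2, 4 and 8 h, had 7 and 10 UMIs without LPS. RELA, with 15 UMIs without LPS and 47 at 4 h, was called higher at 4 h only (log2 ratio 0.79).

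**Figure D3:**
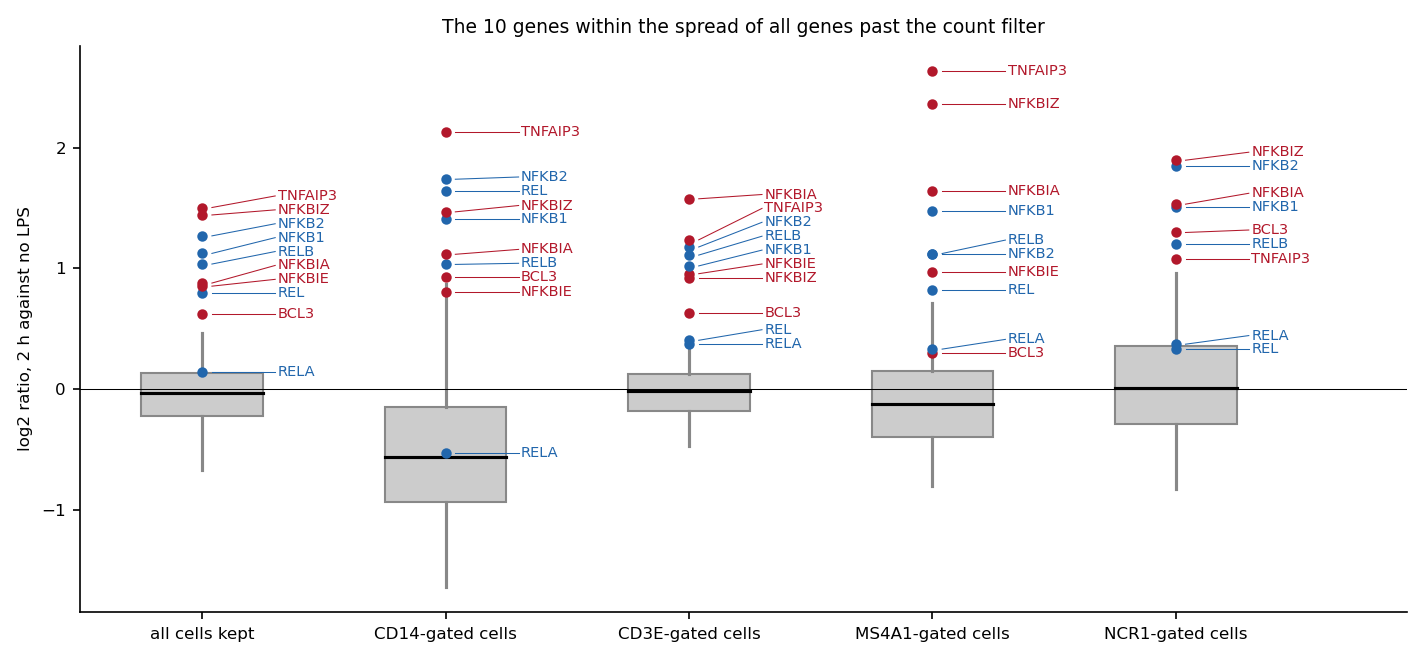
Log2 ratio of the 10 genes at 2 h (points, inhibitors in red and subunits in blue) over all genes with at least 20 UMIs in the same cells (grey box from the 25th to the 75th percentile with the median as a line, whiskers to the 5th and 95th percentiles). In the CD14 class the median of all genes is -0.56 and RELA lies close to it at -0.53.

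Single cells weighed on NK values at 8 h. NFKBIA in the NCR1 class was at 173, 503, 195 and 415 CPM, a log2 ratio of 1.25 at 8 h. Of the 109 UMIs at 8 h, 48 came from 1 cell. With the highest cell of each library left out, 157 CPM without LPS stood beside 241 CPM at 8 h, a ratio of 0.62, still above the 1.5-fold limit. For BCL3, 7 of the 19 UMIs at 8 h came from 1 cell, and the same step took its log2 ratio from 1.04 to 0.73. Leaving out the highest cell, chosen after the values were seen, changed no member's call against no LPS in any of the 4 classes.

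From 2 h to 4 h over all cells, TNFAIP3 (log2 ratio -0.91) and NFKBIA (-0.63) were called lower, 2 of the 10 genes against 3.26% of all genes. No subunit was, and their ratios lay between -0.30 and -0.10. No member was called higher, against 1.53%. From 4 h to 8 h NFKB1 (-0.63) was called lower, against 1.65% of all genes, and none higher, against 4.36%.

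In B cells 4 of the 10 genes were called lower from 2 h to 4 h, against 4.81% of all genes, and all 4 were inhibitors: NFKBIA (-0.64), NFKBIZ (-0.89), NFKBIE (-0.68) and TNFAIP3 (-0.87). From 4 h to 8 h the B cell genes called lower were the subunits NFKB1 and RELB, both at -0.71, against 4.48%. No member was called higher in either step, against 3.68% and 11.7%. In T cells 0 of 10 were called lower from 2 h to 4 h (1.05% of all genes), while NFKBIA, NFKBIE, NFKB1 and RELB were from 4 h to 8 h, against 2.23%. None was called higher (1.63% and 4.51%). In monocytes none was called lower from 2 h to 4 h (6.35% of all genes) or higher (27.8%). From 4 h to 8 h NFKBIA, NFKBIZ, TNFAIP3, NFKB1 and NFKB2 were called lower, against 11.6%, with ratios from -1.21 for NFKBIZ to -0.63 for TNFAIP3, and none higher, against 17%. In NK cells 5 of 9 genes were called lower from 2 h to 4 h, against 9.84%, and none higher, against 9.45%. NFKB2 was called lower in the last step (-0.85, against 13.8%) and NFKBIA, with the cell holding 48 of its UMIs, higher (1.09, against 10.7%). With the highest cell of each library left out, NFKBIA had 182 CPM at 4 h and 241 CPM at 8 h, which would not be called.

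The order of the classes differed by gene. Without LPS the CD14 class had the highest level of NFKBIA, NFKBIZ, NFKB1 and RELA, and the MS4A1 class that of NFKBIE, NFKB2, REL and RELB. For NFKBIA the step from CD14 to MS4A1 was 3.08 on the log2 scale (interval 3.02 to 3.14), and the next, from MS4A1 to CD3E, only 0.27 (interval 0.20 to 0.34). For BCL3 the CD3E, CD14 and MS4A1 classes differed by less than the counting error (steps of 0.01 and 0.03). For RELB the MS4A1 and CD3E classes differed by 0.13 (interval 0.01 to 0.25) and the following step to NCR1 was within the counting error. At 2 h the CD14 class was highest for 6 genes and at 4 h for 8, but at 4 h its lead was within the counting error for RELA (0.12 over the NCR1 class, interval -0.38 to 0.64) and NFKBIE (0.20 over the MS4A1 class, interval -0.34 to 0.70).

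The amount of free monocyte RNA in other classes was gauged by 4 monocyte genes (CSF1R, VCAN, CCL2 and CD68), none of which exceeded 1.89% of its CD14 class level in T cells or 2.75% in B cells. The lowest member in T cells was at 6.96% of its CD14 class level (TNFAIP3 at 2 h), and the lowest in B cells at 7.92% (TNFAIP3 without LPS). All 10 genes lay above the highest gauge gene in both classes in every library. In the NCR1 class 9 genes did without LPS and at 8 h, where NFKBIE had 0 UMIs, and all 10 did at 2 and 4 h. At 2 h the lowest member there, NFKBIA, was at 8.52%, beside 3.81% for CSF1R, which rested on 1 UMI.

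Shares of cells with a UMI were compared after thinning every cell to 1000 UMIs. TNFAIP3 was seen in 19.0% of 672 CD14-gated cells without LPS (exact interval 16.1% to 22.2%) and in 67.7% of 300 cells at 2 h (62.1% to 72.9%), then in 61.3% of 106 and 33.3% of 57 cells. Unthinned, these shares were 58.3%, 97.1%, 86.3% and 69.7%. NFKBIA was seen in 81.7% of the monocytes without LPS and in 97.7% at 2 h (unthinned 96.5% and 100%). Of this class 35, 8, 11 and 9 cells were too shallow for the step. Among B cells the share with NFKBIA was 24.4% of 1637 cells without LPS and 50.1% of 2363 at 2 h, with 55 and 29 cells left out. For TNFAIP3 it was 2.38% and 11.7% (unthinned 8.33% and 35.7%). Among T cells the share with NFKBIA was 20.3% of 3381 cells and 42.3% of 4814, with 101 and 123 left out. Of the gauge genes, CSF1R, VCAN and CD68 were seen in at most 1.53% of thinned T cells and 3.07% of thinned B cells. CCL2, which had 34682 CPM in monocytes without LPS, was seen in 19.9%, 3.74%, 1.48% and 14.4% of thinned T cells and 21.6%, 3.51%, 1.76% and 20.2% of thinned B cells. Without LPS the NFKBIA shares were close to those of CCL2, and the TNFAIP3 share of B cells was below it. These shares alone are thus not read as expression. The comparison is unlike, since monocytes without LPS had only 2724 CPM of NFKBIA and 290 CPM of TNFAIP3. Of its CD14 class level, CCL2 then had 0.73% in T cells and 0.90% in B cells. NFKBIA had 9.76% and 11.8%, and TNFAIP3 in B cells 7.92%. At 2 h the shares of both genes were above that of CCL2 in B cells, and NFKBIA was above it in T cells. Unthinned, the NFKBIA shares at no LPS and 2 h were 63.5% and 85.8% in B cells and 50.7% and 74% in T cells, with median depths between 3856 and 4248 UMIs.

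A UMI marks the 3′ end of a transcript, so on this scale the counts of different genes do not grow with transcript length. NFKBIA took 73.3% of the UMIs of the 10 genes in the CD14 class without LPS and 66.8% at 2 h. In T cells its part was 33.3% and 43.8%, and in B cells 29.8% and 36.6%. The 5 inhibitors together had 85.1%, 85.1%, 85.2% and 84.5% of the family's UMIs in monocytes. In B cells they had 42.4% (interval 41.4% to 43.5%) without LPS and 51.6% (51.0% to 52.1%) at 2 h, then 46.0% and 48.7%. T cells had 51.1%, 58.5%, 56.0% and 55.7%. Most NF-kB family transcripts of B cells were thus of subunits without LPS and of inhibitors at 2 h.

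**Figure D4:**
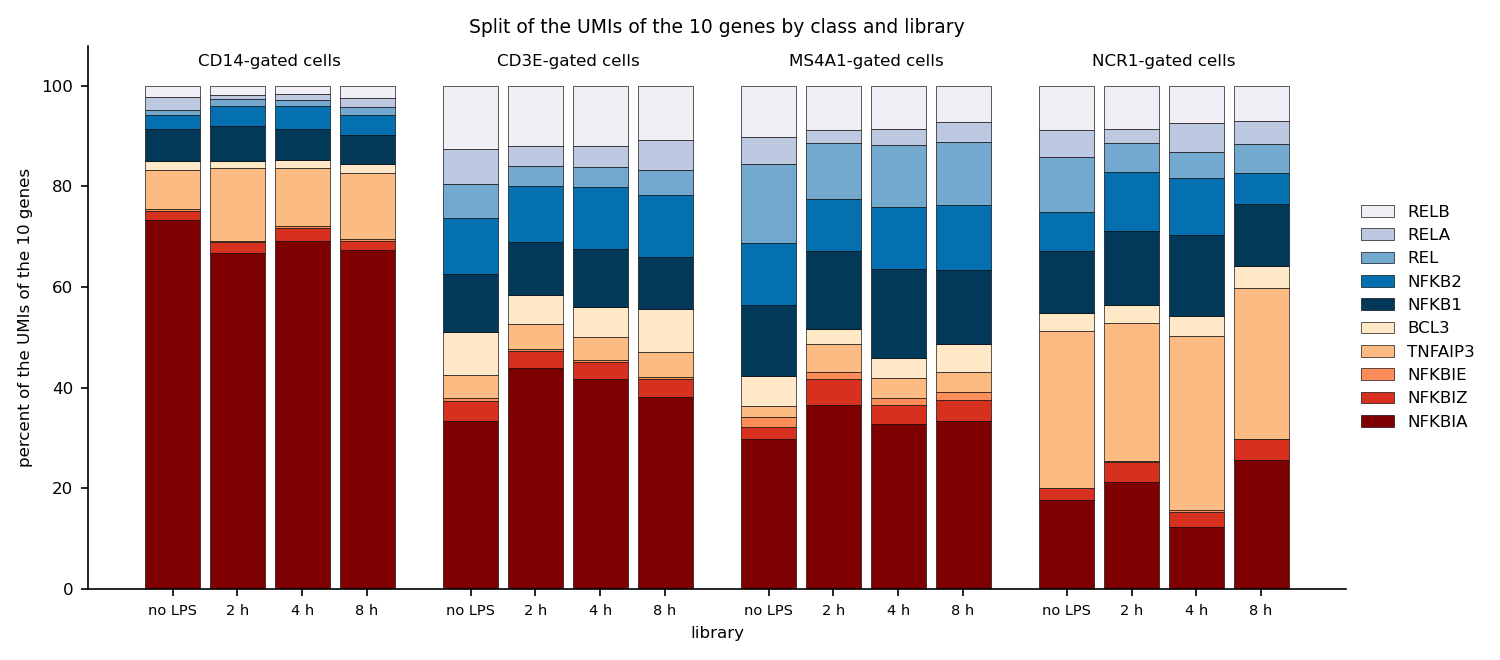
Split of the UMIs of the 10 genes in each class and library, in percent, with inhibitors in red to cream and subunits in blue to white. NFKBIA fills 66.8% to 73.3% of the bars of the CD14 class, and REL takes 15.7% in the MS4A1 class without LPS.

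The level of NFKBIA over all cells at 8 h was below that without LPS (769 against 913 CPM, log2 ratio -0.25), although it was above it in each of the 4 classes, by 0.23 in the CD14, 0.67 in the CD3E, 0.57 in the MS4A1 and 1.25 in the NCR1 class. The CD14 class made up 9.04%, 3.12%, 1.58% and 1.93% of the cells and held 17.5%, 7.46%, 2.83% and 3.82% of all UMIs. It held 52.2% of the NFKBIA UMIs without LPS and 15.9% at 8 h. With each cell scaled to the same total before averaging, so that cells rich in RNA weigh no more than others, the ratio was 0.20. For TNFAIP3 the part from the CD14 class was 51.1%, 33.5%, 18.0% and 20.8%. For REL 37.4% to 49.5% of the UMIs came from the MS4A1 class, which held 20.4% to 28.5% of all UMIs. Cells in no class held between 25.4% and 41.1% of the UMIs of NFKBIA, TNFAIP3 and REL, and 18.4% to 21.8% of all UMIs. Their part was 29.0%, 36.6%, 38.5% and 41.1% for NFKBIA and 27.1%, 36.6%, 38.9% and 36.5% for TNFAIP3. In each LPS library this was more than the CD14 class held of the same gene.

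Of 46 other pathway genes (receptors, adaptors, kinases and other regulators), 7 were called higher and 2 lower at 2 h over all cells, against 3.18% and 6.29% of all genes, with a median of 0.07. The largest differences upwards were those of IRAK3, an inhibitor of receptor signalling (12.3 and 26.1 CPM without LPS and at 2 h), NFKBIB, a further IkB gene (37.9 and 75.5 CPM), and PELI1, a ubiquitin ligase (41.3 and 76.1 CPM). The receptors LTBR (39.3 and 9.02 CPM) and TNFRSF1A (85.3 and 34.5 CPM) were called lower. The CD14 class made up 9.04% of cells without LPS and 3.12% at 2 h, and it had 177 CPM of LTBR without LPS. At 4 h the log2 ratio of LTBR was -0.78 in the CD14 class and -2.85 over all cells. The part of the smaller CD14 class in these differences was not tested. In the CD14 class 12 of 43 measured genes were called higher and 14 lower, against 7.38% and 47.7% of all genes, with a median of -0.12. There the gene of the TNFAIP3-binding protein TNIP3 was at 281 and 774 CPM, the ligase BIRC2 at 44.3 and 120 CPM and the kinase IRAK2 at 66.5 and 153 CPM, whereas ITCH, MALT1 and COMMD1 had log2 ratios of -1.53, -1.49 and -1.45. In T cells 7 of 46 were called higher and 0 lower, against 1.91% and 2.56% of all genes, and in B cells 11 of 44 higher and 4 lower, against 7.03% and 12.9%.

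Of 20 known NF-kB target genes, 10 were called higher and 2 lower over all cells at 2 h, against the same 3.18% and 6.29% of all genes, with a median of 0.59. CD83, a surface protein of activated cells, was at 99.5 and 445 CPM, the RNase gene ZC3H12A at 18.4 and 58.9 CPM, and TRAF1 at 30.6 and 95 CPM. PLAUR (382 and 181 CPM) and NINJ1 (142 and 91.7 CPM) were called lower. Without LPS both had higher levels in the CD14 class (1605 and 589 CPM), which held fewer of the cells at 2 h. In the CD14 class 13 of 20 were called higher and 0 lower, against 7.38% and 47.7% of all genes, with a median of 1.12, led by BIRC3 (146 and 909 CPM), CFLAR (72.5 and 403 CPM) and ZC3H12A (30.0 and 152 CPM). PLAUR there had a log2 ratio of -0.32, the only value below 0 among the targets with at least 50 UMIs. B cells had 13 of 20 higher and 0 lower (7.03% and 12.9% of all genes) with a median of 1.23, and T cells 10 higher and 1 lower (1.91% and 2.56%) with a median of 0.72. At 4 h, the largest log2 ratio among targets of the CD14 class was that of GADD45B (2.86, from 31.3 to 234 CPM), and among its pathway genes that of PELI1 (1.59, from 47.4 to 144 CPM). At 8 h 2 of the 20 targets were called higher and 6 lower over all cells (4.86% and 6.65% of all genes), and 10 of 19 higher and 1 lower in the CD14 class (14.6% and 18.7%).

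The scATAC-seq libraries count open chromatin per gene and barcode, and that without LPS stood apart. It had 975012 counts, against 30250143, 26837579 and 11957904 in the LPS libraries, with a median of 213 counts per barcode. It shared 228 barcodes with the 2 h library, where other scATAC-seq pairs shared 10 to 31, and those barcodes held 18.1% of the counts of the 2 h library. Without them the median log2 ratio of the 10 genes at 2 h was 0.03, as it was with them.

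None of the 10 genes reached a 1.5-fold difference in accessibility at 2 h, where 16.2% of all genes were called higher and 13.4% lower, nor at 4 h (14.7% and 12.1%) or 8 h (9.69% and 13.9%). NFKBIA had 238, 269, 267 and 289 counts per 1000000. NFKBIZ had 152, 170, 176 and 202, and TNFAIP3 166, 193, 190 and 192. The no LPS library left wide intervals, but for NFKBIA (-0.09 to 0.45 at 2 h) and TNFAIP3 (-0.10 to 0.55) they did not hold a 1.5-fold difference. For NFKB1 the interval was 0.11 to 0.79 around a log2 ratio of 0.44, so a 1.5-fold difference was within it. RNA over all cells had log2 ratios of 0.88, 1.5 and 1.12 for NFKBIA, TNFAIP3 and NFKB1.

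Between LPS libraries the counts allowed closer comparisons. From 2 h to 4 h the 10 genes had accessibility log2 ratios from -0.15 to 0.05, where 0.649% of all genes were called higher and 0.795% lower. From 4 h to 8 h NFKB1 was at 194 and 149 counts per 1000000, a log2 ratio of -0.38 (interval -0.49 to -0.27), and it was the only member whose interval lay below 0. Without LPS its level was 152. For 6 of the other 9 genes the interval lay above 0, BCL3 having the largest ratio at 0.28 (interval 0.20 to 0.35). None of these reached 1.5-fold either, against 1.46% of all genes higher and 9.91% lower. The cell types behind the scATAC-seq counts were not separated.

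**Figure D5:**
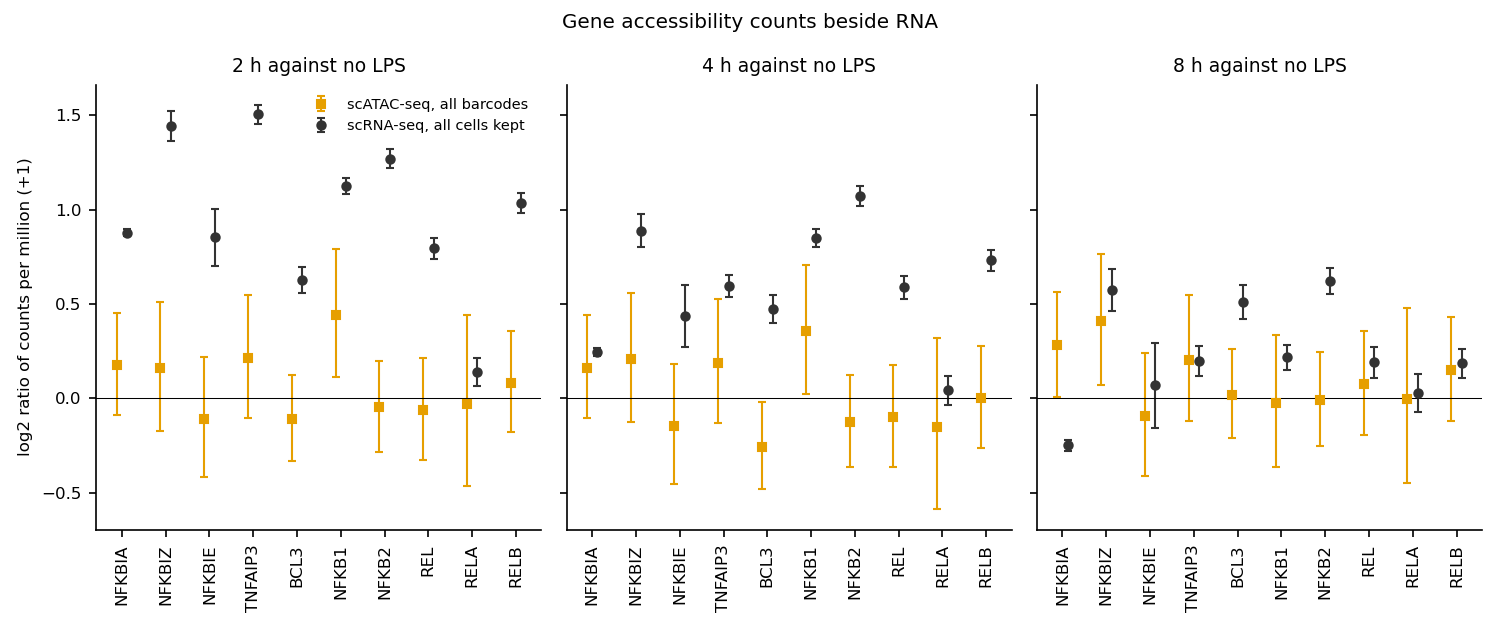
Log2 ratio to no LPS of accessibility counts per gene (all barcodes of scATAC-seq) and of RNA (all cells kept of scRNA-seq) at 2, 4 and 8 h; bars are 95% counting intervals. Accessibility ratios lie between -0.26 and 0.44, while the RNA ratio of TNFAIP3 is 1.5 at 2 h.

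Over the 16 sums of 4 classes and 4 libraries, which share libraries and depth, some members had similar patterns of level. Pearson's r of log2(CPM + 1) was 0.91 for NFKBIZ and NFKB1 and 0.85 for NFKB1 and NFKB2, and it was -0.34 for REL and RELA. Among all genes with at least 200 UMIs, those most like NFKBIA were CDA, PTX3 and IL1A (r of 0.97 for each), most like TNFAIP3 was ELL2 (0.97), and most like NFKBIE were TRAF3 (0.97) and PARM1 (0.95). TRAF1 (0.92) was nearest to NFKBIZ, ATF6 (0.93) to NFKB1, PIM1 (0.84) to NFKB2, PELI1 (0.88) to BCL3, SNX25 (0.88) to REL, NFKBIB (0.87) to RELB and M6PR (0.84) to RELA.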

How the data were processed

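The deposited scRNA-seq files hold the authors' raw UMI counts by gene and cell barcode, from Cell Ranger with the cattle assembly ARS-UCD1.2. The deposited scATAC-seq files hold raw counts by gene, whose counting rule is not given in the sources used here. Limits on cells were 200 to 3000 genes, 200 UMIs or more and a mitochondrial share (13 genes) below 20%. Classes needed at least 2 UMIs of CD14, or 1 of CD3E, MS4A1 or NCR1, and 0 of the other markers. No doublet caller was run, and cells with markers of more than 1 class (4.66% to 8.12%) entered no class. UMIs were summed per library and class, compared genes needed 20 UMIs over both libraries, and intervals were exact Poisson or Clopper-Pearson. Accessibility intervals assumed 2 counts per fragment, since 88.7% to 93.8% of values above 0 were even. The ratio step was tested on simulated data. Scaling factors came from edgeR 4.0.16 (TMM) and DESeq2 1.42.0, neither used for a test. Python 3.11.15, numpy 2.4.6, scipy 1.17.1 and R 4.3.3 were used. Alternatives changed the scaling, pseudocount, filters on genes and cells, and gates.

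The members, gene lists and classes were chosen with earlier results of these data known. All 10 members are named. Of the other lists (46 pathway and 20 target genes), the 3 largest differences in each direction among genes with at least 50 UMIs could be named, as could the 3 genes with the highest r to each member.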

Additional observations from a re-analysis of the deposited data

Results flagged for a closer look

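RELA, the gene of the main activating subunit, had log2 ratios of opposite sign between classes at 2 h against no LPS. The ratio was -0.53 in CD14-gated cells and 0.38 in CD3E-gated and 0.33 in MS4A1-gated cells, and the 95% counting interval lay on 1 side of 0 in each class. The difference between the classes was not tested, as each rests on the same 2 libraries. Relative to the median of all genes in the same cells, the ratios were 0.03, 0.39 and 0.45.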

How the results depend on the processing

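No paired analysis was possible because each treatment had 1 library per assay and the labels give no replicate numbers, and no replicate could be left out. Each median was given a range, from the median of the genes' lower interval bounds to the median of their upper bounds. This range is not a counting interval of the median itself. Of 214 alternative values of the 20 medians over the 10 genes, 192 stayed within the range, 19 moved beyond it and 3 changed sign. Of 1752 alternative values of single members, 200 moved beyond their interval with the same sign or from a value within counting error of 0, and 21 had the other sign, 4 of them for members whose own interval lay apart from 0. The causes of these moves were not tested. With TMM and DESeq2 scaling the medians were 1.74 and 1.84 in CD14-gated cells at 2 h, 1.24 and 1.25 (2 h) and 0.88 and 0.85 (4 h) in MS4A1-gated cells, and 0.070 and 0.072 over all cells at 8 h. These scalings moved the median of all genes by up to 0.53. With every cell scaled to the same total the medians were 1.08 (2 h) and 0.71 (4 h) over all cells and 1.67 and 1.58 in CD14-gated cells. Other gates gave CD14 medians at 2 h of 1.16 (at least 5 UMIs of CD14) and 0.98 (CSF1R), 0.63 at 4 h for CSF1R, and an NCR1 median of 1.53 at 8 h over the 3 members that then had enough UMIs (at least 2 UMIs of NCR1). Leaving out cells with neutrophil receptor UMIs, chosen after the data were seen like the removal of shared scATAC-seq barcodes and of the highest cell, gave 1.03 and 0.86. Without an upper limit on genes the median over all cells at 4 h was 0.65. Accessibility medians changed sign to -0.15 (2 h) and -0.075 (8 h) when a gene counted at most 1 per barcode, and to 0.0063 (4 h) with barcodes of at least 500 counts. These 4 were RELA in CD14-gated cells at 2 h (DESeq2, 0.045), NFKBIA (0.20) and REL (-0.025) over all cells at 8 h with equal cell totals, and NFKB1 in NCR1-gated cells at 8 h with at least 2 UMIs of NCR1 (-0.082). Precision was limited by 38 NCR1-gated cells at 8 h and by 975012 counts in the no LPS scATAC-seq library.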
